A study of Mus musculus with 10 samples.

Results

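The tetraspanin and MS4A genes were followed in hypHSCs and qHSCs, the names given to hypertrophied and quiescent hepatic stellate cells of the mouse, the vitamin A storing cells of the liver. Members were the entries of the gene table whose symbol began with Tspan or Ms4a and a digit, together with the tetraspanins known by a CD symbol, Cd9, Cd37, Cd53, Cd63, Cd81, Cd82 and Cd151. The rule used names only, and it found 49 of the 25233 entries with a symbol: 27 tetraspanin genes, 21 MS4A genes and Tspan2os, an antisense entry listed at 0 in all 10 libraries.

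For hypHSCs, male C57BL/6J mice received the CDAHFD, which lacks choline, is rich in fat and brings on steatohepatitis with fibrosis. hypHSC 1 and 2 were taken after 13 weeks of this diet at 19 weeks of age, and hypHSC 3, 4 and 5 after 12 weeks at 18 weeks of age. Livers of C57BL/6J mice on standard diet gave the qHSCs, aged 36 weeks for qHSC 1, 2 and 5 and 34 weeks for qHSC 3 and 4. The livers of CDAHFD mice were digested more strongly, hypHSCs were sorted on green and qHSCs on blue fluorescence, and the 5 preparations of each group were picked for RNA quality. Diet, age, digestion and sorting gate therefore differed together and cannot be told apart, and the animals behind each preparation are not named, so the p-values measure the spread between preparations, which may be technical.

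Tetraspanins are small membrane proteins that cross the membrane several times and gather integrins, immunoglobulin-family proteins and proteases into microdomains. Some, such as CD63, CD9 and CD81, are classical proteins of extracellular vesicles and of late endosomes. The MS4A proteins share this general topology without being related in sequence, and their best known members, CD20 (Ms4a1) and the beta chain of the IgE receptor (Ms4a2), belong to B cells and mast cells, while others are found in macrophages. In the liver, tetraspanins have been described in stellate cells, hepatocytes, endothelium and leukocytes, with a different set in each.

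Each library held 30534719 to 47317028 reads on genes with a symbol. Levels below are the deposited normalized counts, in which 3 reads, taken here as the floor of detection, were worth 2.25 to 4.54. The markers of the labelled cell type were measured first. All 8 markers of quiescent stellate cells were called lower in hypHSCs, and their summed level was 7753 to 20617 in hypHSCs against 799580 to 1462450 in qHSCs. Of 7 markers of activated stellate cells and myofibroblasts, 2 were called higher, 2 lower and 3 were not called. Their sums overlapped, at 8388 to 36167 in hypHSCs and 23531 to 35752 in qHSCs. All 9 macrophage markers were called higher, 5 of them without overlap, with a summed level of 1184650 to 1587290 in hypHSCs. In qHSCs that sum was 4972 in qHSC 2, 8333 in qHSC 5, 10340.4 in qHSC 3, 49361 in qHSC 1 and 107737 in qHSC 4. Of 5 Kupffer cell markers, 2 were called higher and 3 were not called, with overlapping sums of 14397 to 26274 in hypHSCs and 1058 to 37358.5 in qHSCs. Among all genes tested, 17.8% were called higher and 21.7% lower. Of the other marker lists, the summed neutrophil, B cell, cholangiocyte and mesothelial markers were also higher in every hypHSC library than in any qHSC library. Most of the cholangiocyte sum was Spp1, but Sox9 (146 to 1244 against 4.72 to 37.1), Krt19, Krt7 and Epcam were higher without overlap as well. In bulk libraries, more cells of one type and more RNA of a gene per cell cannot be told apart, and this bears on every result below.

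Both families were reorganised between the groups. A call required a log2 fold change of at least 1 in either direction and an adjusted p of at most 0.05 in limma. Of the 22 tetraspanins with enough counts to be tested, 9 were called higher in hypHSCs, 7 lower and 6 were not called. Of the 10 tested MS4A genes, 7 were called higher, 1 lower and 2 were not called. Among all 14630 genes tested, 39.5% were called, 17.8% higher and 21.7% lower, so a call by itself was common in this comparison. The libraries of the groups did not overlap for 15 of the 22 tetraspanins and 7 of the 10 MS4A genes, against 39.5% of all genes tested. Of the tested genes, 4 tetraspanins and 3 MS4A genes had all hypHSC but not all qHSC libraries at 10 or more normalized counts, and 1 tetraspanin the reverse. These include Tspan15 and Ms4a8a, which were not called. The share over all genes tested was not counted, and the count filter admits genes that are high in a single group. No result is therefore read from these counts. The median log2 fold change was -0.14 over the tetraspanins and 4.86 over the MS4A genes, beside -0.20 over all genes.

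**Figure D1:**
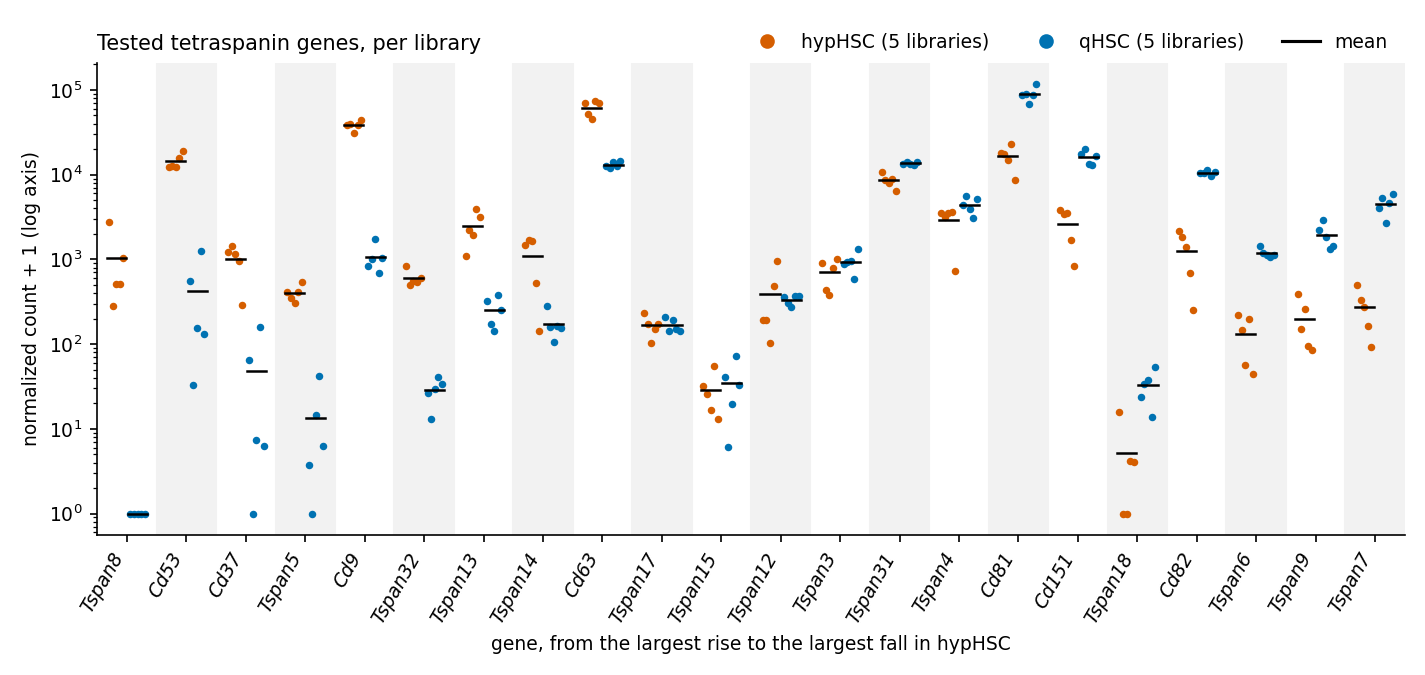
Normalized count plus 1 (log axis) of the 22 tested tetraspanin genes in each of the 5 hypHSC (orange) and 5 qHSC (blue) libraries, with black bars for the group means and genes ordered from the largest rise to the largest fall. Cd9 and Cd63 were high in hypHSCs and Cd81 in qHSCs, and Tspan8 was at 0 in all qHSC libraries.

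Cd9, a tetraspanin of many cell types that partners with integrins and immunoglobulin-family proteins, showed the tetraspanin change with the smallest adjusted p. Its normalized count was 38095, 39965, 30743, 38307 and 43798 in hypHSC 1 to 5. In qHSC 1 to 5 it was 837, 1001, 1735, 695 and 1024. All hypHSC libraries lay far above all qHSC libraries, and the group means differed 36.1-fold (log2 fold change 5.23 ± 0.23 SE, adjusted p = 6.18e-08). Cd63, the tetraspanin of late endosomes, lysosomes and vesicles, stood at 70199.7, 51936, 44778, 73042 and 69424 in hypHSC 1 to 5. It was already abundant in qHSCs, at 12493, 11823, 14282, 12534 and 14611, so its rise was 4.71-fold (log2 fold change 2.21 ± 0.19, adjusted p = 4.21e-06). The groups did not overlap for either gene.

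Cd53 and Cd37, tetraspanins of leukocytes, rose from low and uneven qHSC levels. Cd53 was at 12206, 12744, 12144, 15767 and 19189 in hypHSC 1 to 5 and at 549, 31.5, 154, 1259 and 130.4 in qHSC 1 to 5. No library overlapped, but the qHSC values spread 39.9-fold, with qHSC 4 and qHSC 1 highest and qHSC 2 lowest. The log2 fold change was 6.04 ± 0.78 (adjusted p = 9.01e-05). Cd37 was at 1213, 1453, 1162, 967 and 290.4 in hypHSC 1 to 5, the last clearly below the others. Its qHSC values were 63.4, 0, 6.3, 158 and 5.25, again highest in qHSC 4 and qHSC 1, and its log2 fold change of 6.04 had an SE of 1.18, the widest among called members (adjusted p = 0.00148).

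Tspan32, also called Tssc6 and known from blood cells, was measured at 842, 499, 556, 534 and 608 in hypHSC 1 to 5. The qHSC values were 25.3, 11.9, 28.3, 39.4 and 33, without overlap (log2 fold change 4.48 ± 0.36, adjusted p = 2.81e-06). Tspan32 lies beside Cd81 on chromosome 7, with 33105 bases and no other gene with a symbol between them, and the neighbours moved in opposite directions.

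Tspan8, a tetraspanin of epithelial cells, had no read in any qHSC library. Its hypHSC values of 2796, 280, 509, 509.9 and 1036 spread widely, with hypHSC 1 highest. Against the floor of 3 reads per library the mean was at least 412-fold higher in hypHSCs. The epithelial marker Epcam was at 499.9, 41.4, 28.3, 39.9 and 186 in hypHSC 1 to 5, highest in hypHSC 1 and hypHSC 5 as Tspan8 was, and at 10.9 in qHSC 1 with 0 in the other qHSC libraries. Krt19 was also highest in hypHSC 1 but lowest in hypHSC 5, at 710, 137, 202, 67.1 and 33.3 in hypHSC 1 to 5. The part of epithelial cells in the Tspan8 reads was not tested. Tspan13, a more divergent tetraspanin, was at 1083, 2198, 1955, 3945 and 3176 in hypHSC 1 to 5 and at 322, 171, 142, 379 and 253 in qHSC 1 to 5, with no overlap (log2 fold change 3.24 ± 0.38, adjusted p = 4.3e-05).

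The TspanC8 group consists of Tspan5, Tspan10, Tspan14, Tspan15, Tspan17 and Tspan33, which bring the sheddase ADAM10 out of the endoplasmic reticulum and steer it to its substrates. The members of this group behaved differently. Tspan5 rose, with 408, 350, 304, 408 and 540 in hypHSC 1 to 5 against 2.72, 0, 13.4, 41.1 and 5.25 in qHSC 1 to 5 (log2 fold change 5.87 ± 0.84, adjusted p = 0.000171). Tspan14 was at 1471, 1709, 1639, 519 and 142 in hypHSC 1 to 5 and at 277, 160, 106, 164 and 153 in qHSC 1 to 5. Its groups overlapped because hypHSC 5 lay below 4 of the 5 qHSC libraries. Its call (log2 fold change 2.26 ± 0.64, adjusted p = 0.0125) was lost when only the hypHSCs of 12 weeks were used, to which hypHSC 4 and 5 belong (log2 fold change 1.59, adjusted p = 0.0853) or when the test was against a fold of 2 (adjusted p = 0.137).

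Tspan17 was at 234, 170, 103, 151 and 169 in hypHSC 1 to 5 and at 205, 143, 191, 151 and 141 in qHSC 1 to 5, which overlapped throughout (log2 fold change -0.04 ± 0.29, adjusted p = 0.926). Tspan15 was low, at 31.0, 24.9, 15.8, 54.5 and 12.1 in hypHSC 1 to 5 against 39.8, 5.11, 18.9, 71.0 and 32.2 in qHSC 1 to 5 (log2 fold change -0.05 ± 0.70, adjusted p = 0.961). The sign of both values changed with the scaling or with the library left out, so no direction can be given. Tspan33 did not reach the count filter. It was at 44.5, 5.18, 16.6, 19.9 and 16.6 in hypHSC 1 to 5, while the qHSC libraries held 3 reads in all, all of them in qHSC 1. Against the floor its mean was at least 8.26-fold higher in hypHSCs. Tspan10 had at most 5 reads in any library. Among TspanC8 genes the highest mean FPKM, a level per gene length, belonged to Tspan14 in hypHSCs (3.39 ± 2.35 SD, n = 5) and to Tspan17 in qHSCs (2.37 ± 0.51 SD, n = 5), and in hypHSCs the values of Tspan14 and Tspan17 (1.83 ± 0.51) were not apart beyond their spread.

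Adam10, the protease these tetraspanins escort, rose as well. It was at 4014, 4281, 4576, 6838 and 13948 in hypHSC 1 to 5 and between 1698 and 2156 in qHSCs (log2 fold change 1.60 ± 0.31, adjusted p = 0.00136). hypHSC 5, the library with the least Tspan14, had the most Adam10 and the most Tspan5. In the list of ADAM10 and its substrates, 5 of 15 tested genes were called higher and 3 lower, beside 17.8% and 21.7% of all genes tested. The hyaluronan receptor Cd44 and the efferocytosis receptor Mertk rose, from a mean of 246 to 1924 and from 875 to 2803. The cadherin Cdh2 fell from 4429 to 164 and Notch1 from 1148 to 177. Of the other Notch genes of the list, Notch2 was called higher, from a lower level (27.4 to 81.0), and Notch3 was not called. App, the amyloid precursor, averaged 9408 in hypHSCs and 17972 in qHSCs, without overlap but short of the fold limit (log2 fold change -0.97 ± 0.20).

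Among tetraspanins, the largest falls in mean count were those of Cd81, Cd151 and Cd82. Cd81, a tetraspanin of many cell types and a receptor of hepatitis C virus on human hepatocytes, was the tetraspanin with the highest count in qHSCs. It stood at 18063, 17546, 14724, 22974 and 8713 in hypHSC 1 to 5, with hypHSC 5 lowest. In qHSC 1 to 5 it was 87678, 89845, 67689.6, 87136 and 116411. The groups did not overlap, and the means differed 5.47-fold (log2 fold change -2.50 ± 0.26, adjusted p = 2.12e-05). The entry R74862, which runs on the opposite strand over 8.23% of the Cd81 exon bases, fell beside it from a mean of 2933 to 519. Libraries were counted without strand, so reads of the shared bases cannot be assigned to either gene. The same limit holds for 11.4% of the exon bases of Cd9 (Gm26728 on the opposite strand) and 18.5% of those of Tspan8 (4930422I22Rik). For Tspan4 it holds for 33.1% (Polr2l and Chid1).

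Cd151, a partner of laminin-binding integrins, was at 3804, 3387, 3509, 1678 and 829 in hypHSC 1 to 5. Its qHSC values were 17636, 19907, 13204, 13091 and 16479.8 (log2 fold change -2.79 ± 0.39, adjusted p = 0.000146). Cd82, a tetraspanin known as a metastasis suppressor, was at 2159, 1838, 1410.4, 698 and 253 in hypHSC 1 to 5. Its qHSC values were 10414, 10366, 11452, 9745 and 10686, within a narrow range (log2 fold change -3.40 ± 0.49, adjusted p = 0.000196). For both genes no library overlapped, and hypHSC 4 and hypHSC 5 lay below the other hypHSC libraries. On the opposite strand, Polr2l and Gm10575 cover 23.7% of the exon bases of Cd151, and Polr2l averaged 2884 in hypHSCs and 3519.6 in qHSCs.

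Tspan7, Tspan9 and Tspan6 fell further in proportion, from lower levels. Tspan7, known from neurons and linked to X-chromosomal intellectual disability, was at 496, 331, 270.3, 164 and 92.3 in hypHSC 1 to 5 and at 4001, 5251, 2707, 4574 and 5856 in qHSC 1 to 5 (log2 fold change -4.22 ± 0.41, adjusted p = 1.18e-05). Tspan9, found in platelets, was at 392, 151, 257, 93.4 and 84.7 in hypHSC 1 to 5 and at 2227, 2909, 1821, 1329 and 1431 in qHSC 1 to 5 (log2 fold change -3.49 ± 0.42, adjusted p = 5.62e-05). Tspan6 was at 217, 145, 55.7, 199 and 43.9 in hypHSC 1 to 5 and at 1435, 1187, 1139, 1068 and 1134 in qHSC 1 to 5 (log2 fold change -3.43 ± 0.44, adjusted p = 8.14e-05). No library of these 3 genes crossed between groups. Tspan18 was the other called fall, at 0 to 14.8 in hypHSCs and 12.8 to 53.2 in qHSCs, so its lowest qHSC library lay below its highest hypHSC library.

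Tspan31, Tspan4, Tspan3 and Tspan12 were not called. Tspan31 was nonetheless lower in every hypHSC library, 6354 to 10834 against 13151 to 14217, with an adjusted p of 0.00413 and a log2 fold change of -0.69 ± 0.16 that missed the fold limit. It was called lower when the libraries were scaled to equal totals (-1.05, adjusted p = 0.000584). Cdk4, on the opposite strand over 26.5% of its exon bases, averaged 2350 in hypHSCs and 3110.4 in qHSCs. Tspan4 was at 3545, 3132, 3480.2, 3667 and 734 in hypHSC 1 to 5 and at 3042 to 5557 in qHSCs (log2 fold change -0.77 ± 0.42, adjusted p = 0.148). Tspan3 (log2 fold change -0.47 ± 0.32) and Tspan12, a co-receptor of the Norrin and Frizzled-4 signal (-0.23 ± 0.51), overlapped between groups. Tspan12 was at 102 to 957 in hypHSCs, highest in hypHSC 5 and hypHSC 4, and at 275 to 366 in qHSCs. Scaled on Hprt, Pgk1 and Actb, which lowered the median of all genes by a log2 value of -0.94, Tspan31, Tspan4 and Tspan3 were called lower (-1.63, -1.71 and -1.41). Tspan1 had no read, and Tspan2, Tspan10 and Tspan11, with at most 37 reads in a library, were not tested.

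By normalized counts, both groups held tetraspanins in like summed amounts but of different kinds. The summed normalized counts of the tetraspanins were 126179 to 173950 in hypHSCs and 133379 to 189515 in qHSCs, which overlapped. Summed FPKM averaged 1125 in hypHSCs and 1260 in qHSCs on summed exon length. On the length of the canonical transcript it averaged 2450 and 2931. The sums depend on scaling, and scaling on Hprt, Pgk1 and Actb moved the median fold change of all genes by -0.94 (log2). Within each library the ratio of Cd9 to Cd81 was 1.67 to 5.03 in hypHSCs and 0.00797 to 0.0256 in qHSCs. Expressed as FPKM on the summed exon length, Cd9 made up 38% ± 3.41 (SD, n = 5) of the tetraspanin transcripts of hypHSCs and 1.24% ± 0.61 of those of qHSCs. Cd63 made up 27.1% ± 2.96 and 6.71% ± 1.05, and Cd53 10.6% ± 1.99 and 0.37% ± 0.45. Cd81 made up 9.22% ± 2.66 in hypHSCs and 57.1% ± 4.19 in qHSCs, where Tspan31, Cd151 and Cd82 followed with 13.7% ± 1.41, 7.47% ± 1.15 and 5.88% ± 0.93. Cd9 and Cd63 changed places at the top of hypHSCs when the length of the canonical transcript was used, with 29.3% ± 3.17 and 43.1% ± 4.21, while Cd81 led in qHSCs by either length.

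**Figure D2:**
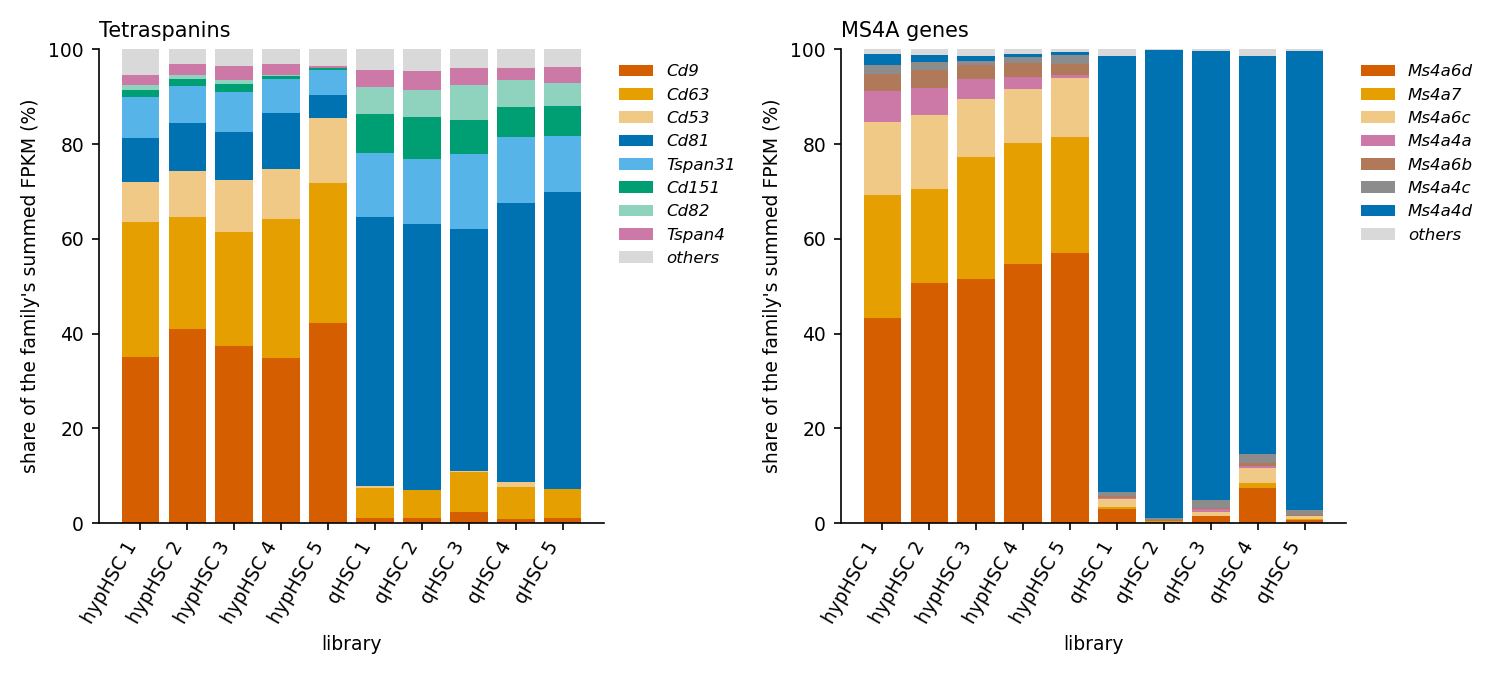
Share of each gene in the summed FPKM of its family (vertical axis, percent), with a stacked bar for each of the 10 libraries, for tetraspanins (left) and MS4A genes (right). Cd9 with Cd63 filled most of the hypHSC bars and Cd81 over 51.1% of each qHSC bar, and Ms4a4d filled 84.0% to 98.7% of the qHSC bars but 0.65% to 2.18% of the hypHSC bars.

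The regions before the starts of the genes were read from RefSeq, which held a promoter for 45 of the 49 members. Cd9 and Cd81 are shown because Cd9 had the smallest adjusted p among the members and Cd81 the highest level in qHSCs, as the 120 bases before the start in the direction of the gene. Capitals mark GGGCGG, the GC box recognised by SP-family factors, on either strand. The stretches matched GRCm39 once each, at chr6:125471724-125471843 on the minus strand for Cd9 and chr7:142606367-142606486 on the plus strand for Cd81.
Cd9: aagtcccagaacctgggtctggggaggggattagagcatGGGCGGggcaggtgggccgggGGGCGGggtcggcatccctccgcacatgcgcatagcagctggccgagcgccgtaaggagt
Cd81: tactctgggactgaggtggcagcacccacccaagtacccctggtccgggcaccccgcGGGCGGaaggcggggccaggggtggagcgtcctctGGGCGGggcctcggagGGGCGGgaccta
Both held the GC box more than once, although they moved in opposite directions. Over the full 250 bases before the start, GGGCGG or its complement CCGCCC was found in 5 of the 9 tetraspanins called higher, in 5 of the 6 called lower that had a promoter, and in 32.7% of all 32851 promoters.

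The MS4A genes lie in one run on chromosome 19, from 10939653 to 11618216 in the GRCm39 coordinates of the table, and Ms4a4d stood against its neighbours there. Ms4a4d was at 1069, 532, 333, 362 and 464 in hypHSC 1 to 5. In qHSC 1 to 5 it was at 20022, 25676, 20474, 18656 and 20476, an even and high level. The means differed 38.1-fold without overlap (log2 fold change -5.38 ± 0.28, adjusted p = 1.74e-07), and this was the one MS4A gene called lower. Ms4a6b ends 5535 bases before Ms4a4d and Ms4a6d begins 28138 bases after it, with no other gene with a symbol in either gap, and both were called higher.

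**Figure D3:**
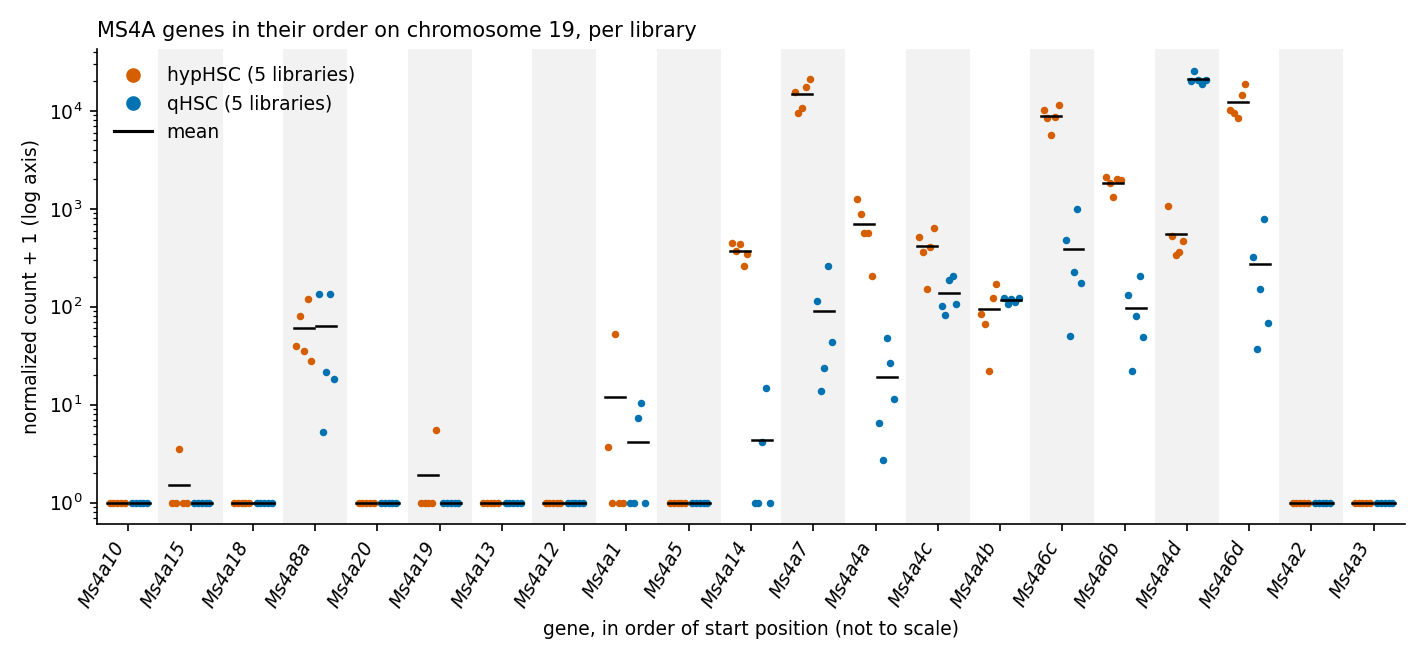
Normalized count plus 1 (log axis) of the 21 MS4A genes in their order on chromosome 19, with a point for each of the 5 hypHSC (orange) and 5 qHSC (blue) libraries and black bars for the means. Ms4a4d was the only gene with its qHSC points far above its hypHSC points, between Ms4a6b and Ms4a6d with the opposite pattern.

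Ms4a6d, at the other side of that gap, was at 10187, 9612, 8461, 14668 and 18957 in hypHSC 1 to 5 and at 319, 35.8, 151, 793 and 67.4 in qHSC 1 to 5 (log2 fold change 6.23 ± 0.70, adjusted p = 3.22e-05). Ms4a6b was at 2109, 1839.6, 1311, 2009 and 1983 in hypHSC 1 to 5 and at 131, 21.3, 78.7, 206 and 48.0 in qHSC 1 to 5 (log2 fold change 4.6 ± 0.51, adjusted p = 3.03e-05). Ms4a6c was at 10292, 8403, 5665, 8634 and 11576 in hypHSC 1 to 5 and at 484, 49.4, 228, 995 and 172 in qHSC 1 to 5 (log2 fold change 5.12 ± 0.64, adjusted p = 7.11e-05). In all 3 genes of the Ms4a6 group qHSC 4 was the highest qHSC library and qHSC 2 the lowest, and no library overlapped with hypHSCs. An annotated gene on the opposite strand covers 76.6% of the Ms4a6c exon bases, and the only entry of the table at that place, one without a symbol, had 68.7 to 114 normalized counts in hypHSCs. As counting was without strand, reads of the shared bases cannot be assigned to either gene, and the count of that entry does not settle their origin.

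Ms4a7, an MS4A gene of macrophages and microglia, showed the largest rise of the family. It was at 15579.9, 9623, 10789, 17610.2 and 20986 in hypHSC 1 to 5 and at 112, 12.8, 22.8, 259 and 42.7 in qHSC 1 to 5 (log2 fold change 8.07 ± 0.68, adjusted p = 4.4e-06). Ms4a14, its neighbour, was at 449, 366, 437, 258 and 346 in hypHSC 1 to 5, with reads in only qHSC 3 and qHSC 4 among qHSCs, at 3.15 and 13.7 (log2 fold change 7.33 ± 0.76, adjusted p = 1.9e-05). Ms4a4a was at 1268, 881, 565, 569 and 203 in hypHSC 1 to 5 and at 5.43, 1.7, 46.5, 25.7 and 10.5 in qHSC 1 to 5 (log2 fold change 5.62 ± 0.77, adjusted p = 0.000134).

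Ms4a4c, which shares 5.44% of its 59-base exon stretches, the read length, with its paralogue Ms4a4b, was at 512, 362, 151, 406 and 641 in hypHSC 1 to 5 and at 100.5, 80.9, 187, 206 and 106 in qHSC 1 to 5. hypHSC 3 lay among the qHSC libraries, and the call (log2 fold change 1.55 ± 0.42, adjusted p = 0.0108) was lost when the libraries were scaled on Hprt, Pgk1 and Actb (0.61, adjusted p = 0.271), when the hypHSCs of 12 weeks were used alone (1.41, adjusted p = 0.0536) or when the test was against a fold of 2 (adjusted p = 0.334). Ms4a4b, known from T cells, was at 20.8 to 171 in hypHSCs and 106 to 123 in qHSCs, and Ms4a8a at 27.2 to 119 and 4.26 to 135, and neither was called. The sign of the Ms4a8a difference depended on the method.

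The members that gave the family its names were at or near 0. Ms4a1, which encodes CD20, had 64 reads over the 5 hypHSC libraries, 62 of them in hypHSC 3, and 19 over the qHSC libraries. Ms4a2 and Ms4a3, the latter a gene of basophils and early granulocytes, had none, as did Ms4a5, Ms4a10, Ms4a12, Ms4a13, Ms4a18 and Ms4a20, while Ms4a15 and Ms4a19 had 3 reads each. Of the B cell markers, Pax5 was at 0 in all libraries, while Cd22 (mean 729 against 18.5) and Cd79b (238 against 20.4) were called higher without overlap. Of 5 mast cell and basophil markers Fcer1a and Mcpt8 were at 0 in all libraries and the others at 0 in all qHSC libraries, but hypHSC 4 held Cpa3 at 73.4, Cma1 at 48.3 and Tpsb2 at 35.7.

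The MS4A make-up was close to a replacement. Ms4a4d held 93.2% ± 5.76 (SD, n = 5) of the MS4A transcripts of qHSCs by FPKM on summed exon length, and 1.16% ± 0.64 of those of hypHSCs. Of the hypHSC transcripts, Ms4a6d held 51.4% ± 5.16, Ms4a7 24.3% ± 2.56 and Ms4a6c 13.4% ± 2.02, and with canonical lengths Ms4a7 came first with 41.3% ± 3.79. The summed normalized counts of the family ran from 27819.9 to 55360 in hypHSCs and, below them all, from 21063 to 25988 in qHSCs. These sums depend on scaling too. Scaling on Hprt, Pgk1 and Actb moved the median fold change of all genes by -0.94 (log2), and the gap between the groups was small.

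The promoters of Ms4a6b and Ms4a6c are shown with that of Ms4a4d, the 120 bases before each start on the plus strand of GRCm39, because the first pair rose and the third fell within a single gene cluster. They lie at chr19:11495803-11495922, chr19:11446612-11446731 and chr19:11514038-11514157. Capitals mark AGGAAGT or its complement ACTTCCT, a form of the core bound by ETS factors such as PU.1, and GGGCGG or its complement CCGCCC.
Ms4a6b: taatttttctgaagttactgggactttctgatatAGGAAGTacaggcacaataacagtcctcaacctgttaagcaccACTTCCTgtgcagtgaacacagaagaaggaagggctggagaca
Ms4a6c: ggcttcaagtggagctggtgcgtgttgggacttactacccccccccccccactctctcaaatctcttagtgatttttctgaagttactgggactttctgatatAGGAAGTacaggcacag
Ms4a4d: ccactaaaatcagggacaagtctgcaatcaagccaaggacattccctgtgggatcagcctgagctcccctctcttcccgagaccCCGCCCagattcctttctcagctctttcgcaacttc
Ms4a6b and Ms4a6c shared an identical run of 48 bases that contained the motif, which ended 70 bases before the annotated start of Ms4a6b and 1 base before that of Ms4a6c:
shared run: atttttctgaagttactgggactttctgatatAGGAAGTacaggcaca
The longest run that either shared with Ms4a4d over 250 bases was 7 bases. Over 250 bases, AGGAAGT was in 2 of the 6 MS4A promoters of genes called higher, Ms4a6b and Ms4a6c, and in 7.69% of all promoters, while GGGCGG was in none of these 6 and in that of Ms4a4d. The printed pair are thus the only ones of the 6 that held AGGAAGT. Ms4a7, the MS4A gene with the largest rise, held none and is not shown. Of the tetraspanins, AGGAAGT was in 1 of the 9 called higher, Cd37, and in 1 of the 6 called lower, Cd82. Among those called, Cd37 alone held CACGTG, the E-box, which 6.02% of all promoters held. The 9 tested MS4A genes with a promoter had a GC content of 34.4% to 47.2% (median 42.0%) in these 250 bases, the 21 tetraspanins one of 36.0% to 70.8% (median 58.8%), and all promoters a median of 52.4%. These matches describe the letters of the windows only.

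The qHSC libraries were not alike in the members that rose. Of the 16 members of both families called higher, 11 had their highest qHSC value in qHSC 4 and 11 had their lowest in qHSC 2, the libraries with the highest and lowest macrophage marker sum. That sum was 21.7-fold higher in qHSC 4 than in qHSC 2, Cd53 39.9-fold, Ms4a6d 22.2-fold, Ms4a7 20.3-fold, Ms4a6c 20.1-fold and Ms4a6b 9.68-fold. Cd9 and Cd63 did not share this order, with ratios of 0.694 and 1.06. Per 1000 normalized counts of the 9 macrophage markers, Cd53 was at 7.69 to 16.2 in hypHSCs and 6.34 to 15.6 in qHSCs, and Ms4a6d at 6.14 to 16 and 6.47 to 14.6, so both overlapped on this scale. Ms4a6c, at 4.22 to 9.77 and 9.24 to 22, barely overlapped, and Ms4a6b was lower in hypHSCs, at 0.976 to 1.67 against 1.91 to 7.61. Ms4a7 was at 6.15 to 17.7 and 2.21 to 5.13, without overlap. Cd9 spanned 22.9 to 37 in hypHSCs, inside its qHSC range of 6.45 to 201. Cd63 (33.2 to 58.6 against 116 to 2378) and Tspan13 (0.683 to 2.75 against 3.52 to 34.4) were lower in hypHSCs on this scale, without overlap. Cd37, Tspan5, Tspan32, Ms4a4a and Ms4a14 overlapped. The make-up of the macrophage marker sum differed between the groups. Lyz2 averaged 845672 and C1qb 122228 in hypHSCs, but 10586 and 10733 in qHSCs. Overlap on this scale is therefore no like-for-like comparison of the groups. The part of macrophages in these results was not tested.

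**Figure D4:**
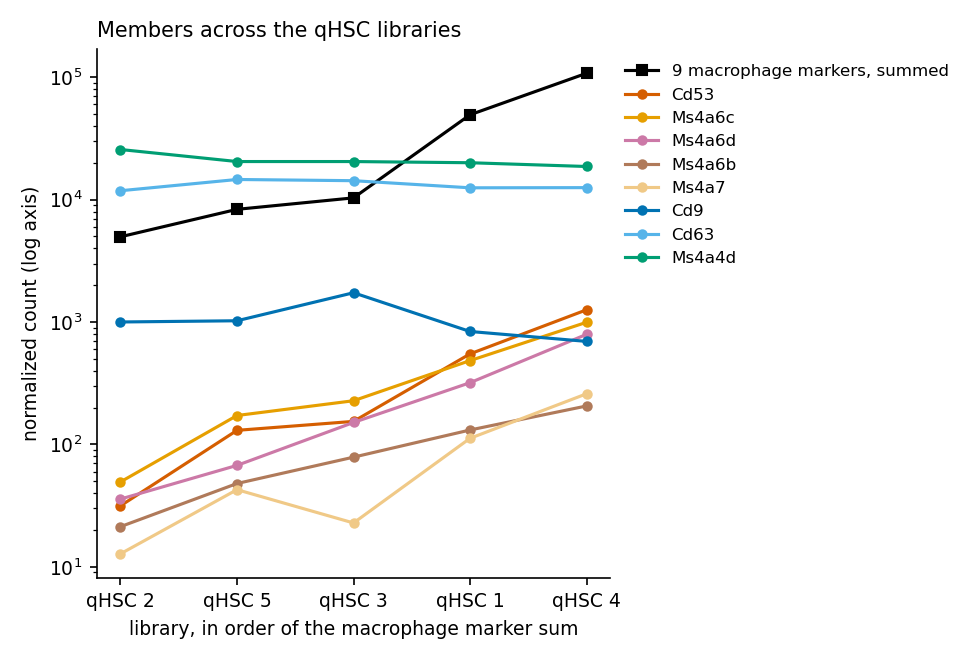
Normalized counts (log axis) of 8 members and the summed level of 9 macrophage markers (black squares) in the 5 qHSC libraries, ordered by that sum. Cd53 and the Ms4a6 genes rose with the marker sum from qHSC 2 to qHSC 4, while Cd9 and Ms4a4d had their lowest value in qHSC 4.

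Among hypHSCs, hypHSC 5 had the lowest value in 6 of the 8 members called lower, Cd81, Cd151, Cd82, Tspan6, Tspan7 and Tspan9, and hypHSC 1 the highest in 7 of them. hypHSC 5 also had the lowest summed level of quiescent stellate markers, 7753, and hypHSC 1 the highest, 20617. The mitochondrial share of reads was 12.8% in hypHSC 1, 7.27% in hypHSC 2 and 2.21% to 3.42% in hypHSC 3 to 5. hypHSC 3, also from the 12-week mice, lay closer to hypHSC 1 and 2 than to hypHSC 5 in Cd151, Tspan14 and Tspan4. In Tspan6 (55.7 in hypHSC 3 and 43.9 in hypHSC 5) and Ms4a4d (333 and 464) it lay closer to hypHSC 5. The part of the diet weeks was not tested. With hypHSC 4 and 5 left out, an alternative chosen after seeing the data, the counts of 9 higher and 7 lower tetraspanins became 9 and 8, Tspan12 being added (log2 fold change -1.08, adjusted p = 0.00638). With qHSC 1 and 4 left out, chosen in the same way, they stayed at 9 and 7.

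The surface proteins with which tetraspanins associate moved both ways. Of 23 tested genes of this list, 13 were called higher and 5 lower, with a median log2 fold change of 1.93. Of all genes tested, 17.8% were called higher and 21.7% lower, with a median of -0.20. The fatty acid and lipoprotein receptor Cd36, which CD9 accompanies in macrophages, averaged 115457 in hypHSCs and 236 in qHSCs, and the leukocyte integrin chain Itgb2 30155 and 466. Igsf8, the immunoglobulin-family partner of CD9 and CD81, rose from 193 to 1187 on average (log2 fold change 2.66 ± 0.27), and Adam17 from 1068 to 2915. Itga6, a partner of CD151, rose from 2.29 to 365, while Cd151 fell. Of the other integrin alpha chains of the list, Itga4 was called higher (from 26.9 to 456). Itga3 was not called (30.8 in qHSCs and 19.8 in hypHSCs), and Itga7 did not reach the count filter. The interferon-induced Ifitm1, Ifitm2 and Ifitm3, which interact with CD81, fell from 42469 to 924, from 99101 to 27539 and from 109175 to 29689. Itgb1, the chain that pairs with the laminin-binding integrins, averaged 3669.9 in hypHSCs and 6757 in qHSCs (log2 fold change -0.95 ± 0.23, not called).

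**Figure D5:**
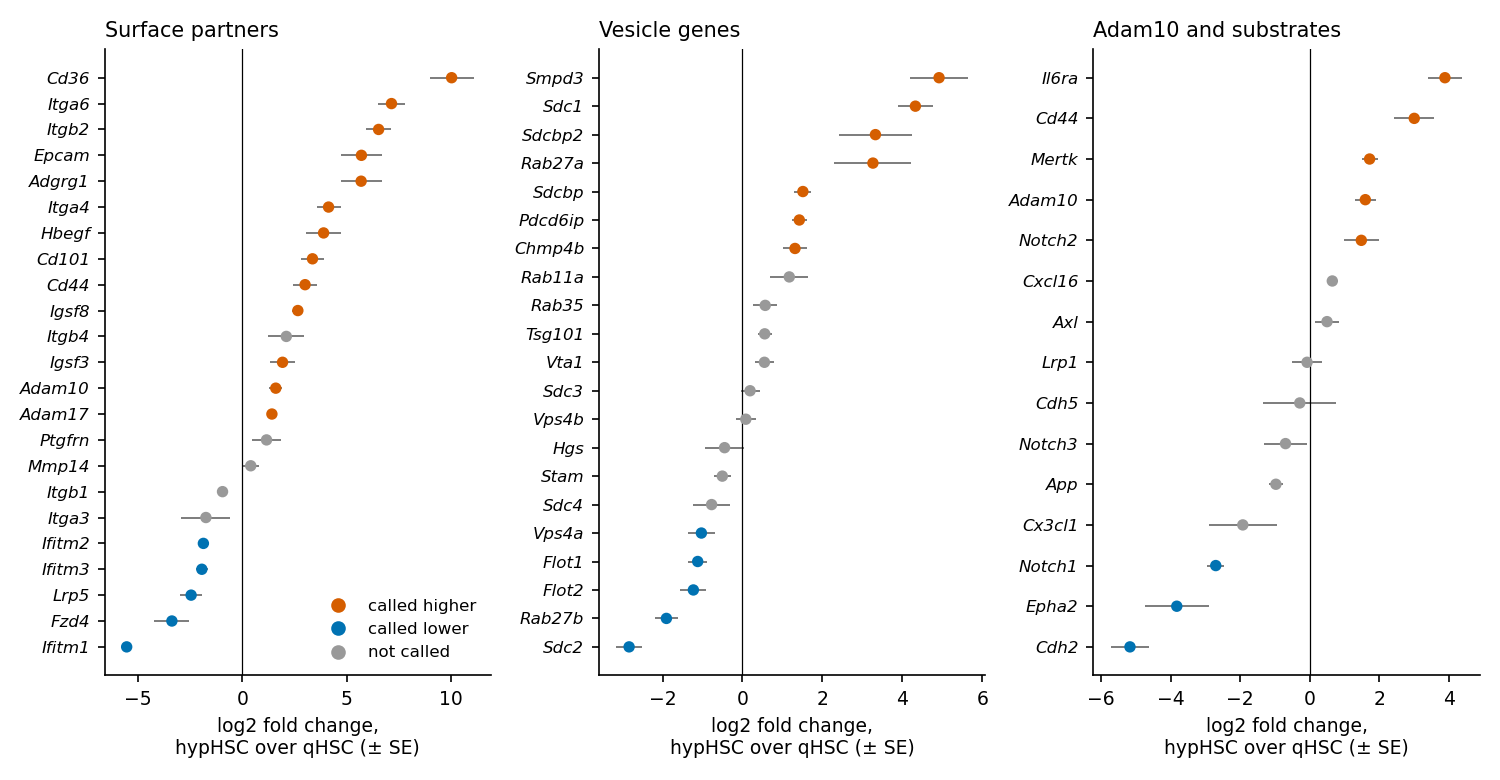
Log2 fold change of hypHSC over qHSC with its SE (horizontal axis) for the tested genes of 3 lists, orange for called higher, blue for called lower and grey for not called. In the surface list 13 genes were called higher and 5 lower, in the vesicle list 7 and 5, and in the list of Adam10 and its substrates 5 and 3. Of all genes tested, 17.8% were called higher and 21.7% lower.

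Of 21 tested genes of vesicle formation and multivesicular bodies, 7 were called higher and 5 lower, beside 17.8% and 21.7% of all genes tested. Sdcbp, which encodes syntenin, the adaptor that binds CD63 and syndecans, rose from 19576 to 56960 (log2 fold change 1.51 ± 0.21), and its partner Pdcd6ip, or ALIX, from 708 to 1907. The syndecans, its other ligands, changed in opposite directions, Sdc1 from 54.2 to 1009 and Sdc2 from 5840.4 to 910. Of the RAB27 pair that docks these vesicles, Rab27b fell from 1875 to 513 and Rab27a rose from 16.4 to 113, and the raft proteins Flot1 and Flot2 fell from 2225 to 1065 and from 2115 to 1003. Of the ESCRT genes, Chmp4b was called higher (log2 fold change 1.31 ± 0.29) and Vps4a lower (-1.03 ± 0.34), and Tsg101, Hgs, Stam, Vps4b and Vta1 were not called. The list depended on the settings, with 3 higher among genes with a mean of at least 100 and 3 lower without hypHSC 5.

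The receptors and kinases with which MS4A proteins work in myeloid cells and mast cells were called higher in 8 of 8 tested genes, beside 17.8% of all genes tested. The adaptor Tyrobp rose from 4013 to 93195, the shared signalling chain Fcer1g from 3509 to 80553, Trem2 from 38.3 to 23323 and the beta-glucan receptor Clec7a from 257 to 28984. The kinases Lyn and Btk rose from 1226 to 5583 and from 66.5 to 1998. Fcer1a, the IgE-binding chain, had no read in any library. Within qHSCs Tyrobp was 19.5-fold higher in qHSC 4 than in qHSC 2, near the ratios of Ms4a6c (20.1) and Ms4a6d (22.2) but above that of Ms4a6b (9.68). Tmem176a and Tmem176b, relatives of the MS4A proteins encoded elsewhere, went with Ms4a4d, from 27975 to 3606 (log2 fold change -3.15 ± 0.35) and from 39982 to 6972 (-2.62 ± 0.26). Of 4 tetraspanins whose symbols the naming rule does not cover, Prph2 had no read, Upk1a and Upk1b had up to 29.9 normalized counts, and Rom1 averaged 101 in hypHSCs and 395 in qHSCs with an adjusted p of 0.0501.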

How the data were processed

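RNA sequencing of 5 hypHSC and 5 qHSC libraries was analysed. Per the submitters' processing notes and the study's methods, the authors aligned the reads of amplified, non-stranded libraries to mm39 with STAR (2.7.5a), counted them per gene of FAST DB with featureCounts (Subread 1.5.0) and divided them by DESeq2 size factors. The deposited values are this signal, the normalized count, and 100% of them were whole reads after multiplication by a factor per library (tolerance 0.005 normalized counts), which gave the depth, FPKM and inputs of DESeq2 1.42.0 and edgeR 4.0.16, used as alternatives, which called 2862 and 2630 genes higher and 2959 and 2650 lower. The 37089 entries without a symbol, with 8.98% to 29.1% of the reads of a library, were left out of the tests. Genes that reached 10 normalized counts in 5 or more libraries were compared as log2(normalized count + 1) with limma 3.58.1 (trend, R 4.3.3), with Benjamini-Hochberg adjustment over 14630 genes. Fold changes are on that scale, which understates those of low genes, and SE is limma's. For every member whose groups did not overlap, the exact two-sided permutation test over 252 arrangements gave p = 0.00794, the smallest possible. The script was tested on simulated data. Lengths came from GENCODE vM39 on GRCm39, with all 49 members matched, and promoters from RefSeq (GRCm38.p6), with the printed ones placed on GRCm39 by exact match. All members could be named, with values in every library for CD members, the TspanC8 group and called members with a group mean of at least 100. Of list genes, called ones with a mean of at least 1000 came first, at most 8 a list. Itga6, Rab27a, Chmp4b, marker genes such as Epcam and the promoter motifs were chosen after their values were seen. Itga3, Itga4, Itga7, Notch2 and Notch3 were added in the same way, beyond this order and number. The members and lists were chosen with earlier results of these data known. Limits of 3 reads cover counting error only. Alternatives were other scalings, filters, pseudocounts and tests, diet weeks, a replicate block, lengths and libraries left out.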

Additional observations from a re-analysis of the deposited data

Results flagged for a closer look

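Within groups of 5 libraries, 3 values of tested members stood apart from the rest by Dixon's criterion on the log2 scale, out of 64 sets of 5 values examined, and chance alone marks about 1 in 20 groups. Tspan4 in hypHSC 5 was at 734 normalized counts, with the other hypHSC libraries at 3132 to 3667. Cd37 in hypHSC 5 was at 290.4, with the others at 967 to 1453. Ms4a6b in hypHSC 3 was at 1311, with the others at 1839.6 to 2109. No qHSC value was marked in this way.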

How the results depend on the processing

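The tetraspanin counts of 9 higher and 7 lower stayed within 1.5 times under every alternative, and all 16 were called in each of 10 fits that left out a library, as were the 8 called MS4A genes. These fits gave 9 higher and 7 lower tetraspanins, 7 higher and 1 lower MS4A genes, 12 to 14 higher and 5 to 6 lower surface partners, 7 to 8 higher and 3 to 5 lower vesicle genes, and 2432 to 2716 higher and 2809 to 3286 lower genes in all. Scaling on Hprt, Pgk1 and Actb moved the median of all genes by -0.94 (log2), with 1472 genes higher and 6990 lower, 17.4% of calls higher against 45.0%, 2 MS4A genes lower (Ms4a4b added), and 4 vesicle genes higher and 8 lower. Equal totals moved it by -0.35 (32.4% of calls higher) and upper quartiles by 0.11. Testing against a fold of 2 left 1465 higher and 1626 lower genes, 2 vesicle genes in each direction, and 8 tetraspanins and 6 MS4A genes higher, without Tspan14 and Ms4a4c. With a mean of at least 100, 3 vesicle genes were higher. Leaving out hypHSC 4 and 5, chosen after seeing the data as were canonical lengths and leaving out qHSC 1 and 4, gave 2 lower MS4A genes (Ms4a4b added) and 2 lower vesicle genes. By counts without length, Cd9 held 24.8% and Cd63 39.7% of hypHSC tetraspanins and Cd63 8.39% of those of qHSCs, and by canonical length 29.3%, 43.1% and 9.99%. Only uncalled genes changed sign. Tspan15 was at 0.056 with upper quartiles, 0.0069 with TMM, 0.66 without qHSC 1 and 4, and from -0.57 to 0.32 with a library left out. Tspan17 was at 0.072, 0.021 and 0.031 in these settings and from -0.17 to 0.12 with a library left out. Ms4a8a was at -0.23 when scaled on the 3 genes and -0.052 in DESeq2 and -0.051 in edgeR. Tspan12 was at 0.21 in both, 0.13 with 12-week hypHSCs, and from -0.67 to 0.13 with a library left out, the last without hypHSC 3. The cause was not tested. The replicate numbers did not pair the libraries, since correlations of same-numbered deviations were 0.00815 to 0.129 and 1 of 5 hypHSCs correlated best with its own number, and with a replicate block 9 tetraspanins were higher and 7 lower, as 7 and 1 MS4A genes were, and 2557 and 3229 genes in all. The depth limits statements on Tspan10, Tspan11 and Ms4a1, and lengths limit comparisons between genes.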
